A study of Homo sapiens with 6 samples.

Results

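The HOX cluster genes are the protein-coding genes of the HOXA, HOXB, HOXC and HOXD clusters, taken here as every gene row with a HOXA, HOXB, HOXC or HOXD symbol that held at least 10 reads on the expected strand in at least 3 of 6 RNA-seq libraries. Of 39 such rows among 23686 genes in the files, 36 met this rule, and the other 3 (HOXB1, HOXC12 and HOXD12) are given as off. The libraries came from HEK293 cells, an established human embryonic kidney line, that carried green fluorescent protein (genotype GFP+) and were collected by fluorescence-activated cell sorting in both groups. The ROS co-culture group held 3 samples of GFP+ cells grown for 10 h beside HEK293 (+DAAO) cells, which produce reactive oxygen species (ROS), with D-alanine at 25 µM. DAAO commonly stands for D-amino acid oxidase, which releases hydrogen peroxide as it oxidises D-amino acids such as D-alanine. The control group held 3 samples of GFP+ cells labelled Wt controls. The labels carry the same treatment text for all 6 samples, so whether the controls received D-alanine or partner cells is not given in the sources used here. All cells were of 1 line, and nothing in the labels says that the samples came from separate cultures, so p-values measure the spread between these samples, which may be technical.

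HOX genes encode homeodomain transcription factors that give cells along the head-to-tail axis of the embryo their positional identity. They lie in order within each cluster, from number 1 at the anterior, early end to number 13 at the posterior, late end, and genes with the same number in different clusters are called paralogues. Polycomb complexes keep silent HOX genes silent, Trithorax (MLL) complexes maintain active ones, retinoic acid induces anterior members, and HOX proteins bind DNA together with TALE cofactors of the PBX and MEIS families. In the developing kidney, genes of paralogue group 11 act in the metanephric mesenchyme, the tissue that forms nephrons.

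The libraries held 19091085 to 36250314 gene-assigned reads on the expected, reverse strand. A single read was worth 0.0279 to 0.0522 CPM (reads scaled to a common library total). A count of 0 leaves room for a true level of up to 3 reads, which is 0.0838 to 0.156 CPM and covers counting error only. Co-culture libraries 2 and 3 stood apart from the other 4 in the share of reads on the opposite, forward strand, whose median over 4907 deeply read genes was 0.124% and 0.211%, against 1.57% to 1.75% in co-culture library 1 and the controls. The calls are therefore also given without these libraries. All 13 HEK293 markers on the list, among them PAX2, LHX1, VIM and NEFL, had at least 1 CPM. Of the 7 markers of differentiated kidney only LRP2 reached 1 CPM, and UMOD and SLC22A6 had no read. None of the 9 blood, hepatocyte and endothelial markers reached 1 CPM. The fibroblast markers COL1A1, COL3A1, LUM and PDGFRA did, while DCN lay near 0, and their summed level was 52.9 to 58.7 CPM in co-culture and 50.02 to 64.3 CPM in the controls. The sum was carried by COL1A1 (41.6 ± 2.67 against 34.3 ± 5.11 CPM, log2 fold change 0.28, edgeR adjusted p 0.131). Of the 4 tested genes on the list, COL1A1 alone had a value above 0, and the other 3 lay below. LUM fell from 10.3 ± 1.17 to 6.49 ± 1.00 CPM (-0.67, edgeR adjusted p 0.0293), and COL3A1 stood at 2.90 ± 0.580 against 5.69 ± 3.15 CPM (-0.95, edgeR adjusted p 0.159). The summed level of the 13 HEK293 markers was 2564 to 2771 CPM in co-culture and 2156 to 2248 CPM in the controls, a difference that was not tested. Of these 13 markers, 2 were called higher and 1 lower in edgeR, against 2.66% and 2.17% of all tested genes. Those called higher were VIM (0.40, edgeR adjusted p 0.00793) and INA (0.38, edgeR adjusted p 0.0118). The log2 fold changes of the 13 ran from -0.36 to 0.40, with 8 above and 5 below 0. An unadjusted edgeR p under 0.05 was found for 9 of them, against 23.2% of all tested genes. The part of these markers in the HOX differences was not tested.

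Transcription start regions of the HOXD genes are shown first, because 3 of the 4 HOX genes that passed the test between the groups lie in that cluster. Each sequence is the 250 bases before the annotated start, on the plus strand of GRCh38.p14, from RefSeq. Entries were found for 18 of the 36 members; HOXD9 and HOXA5 had none. HOXD11 and HOXD10 are the called genes with an entry, and HOXD13 and HOXD8 are the nearest read neighbours on either side of the HOXD11 to HOXD9 stretch. Capitals mark matches, on either strand, to 1 of 8 short motifs, each spelled out below with its share of all promoters. The regions lie at chr2:176092471-176092720 (HOXD13), chr2:176107030-176107279 (HOXD11), chr2:176116528-176116777 (HOXD10) and chr2:176129455-176129704 (HOXD8).
HOXD13: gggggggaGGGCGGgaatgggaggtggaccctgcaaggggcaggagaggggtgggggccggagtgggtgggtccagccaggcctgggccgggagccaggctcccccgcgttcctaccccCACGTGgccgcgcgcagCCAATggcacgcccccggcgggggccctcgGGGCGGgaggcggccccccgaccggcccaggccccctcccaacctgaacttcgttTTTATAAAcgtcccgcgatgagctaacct
HOXD11: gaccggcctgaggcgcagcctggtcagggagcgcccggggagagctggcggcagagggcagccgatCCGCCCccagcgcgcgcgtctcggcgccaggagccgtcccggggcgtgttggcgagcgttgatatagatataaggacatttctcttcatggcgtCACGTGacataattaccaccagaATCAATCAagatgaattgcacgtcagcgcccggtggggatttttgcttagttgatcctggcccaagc
HOXD10: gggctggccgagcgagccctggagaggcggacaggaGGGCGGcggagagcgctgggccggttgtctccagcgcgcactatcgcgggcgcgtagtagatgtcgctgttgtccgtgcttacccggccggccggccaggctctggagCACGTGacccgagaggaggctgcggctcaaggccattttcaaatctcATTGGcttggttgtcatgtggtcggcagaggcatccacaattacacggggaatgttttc
HOXD8: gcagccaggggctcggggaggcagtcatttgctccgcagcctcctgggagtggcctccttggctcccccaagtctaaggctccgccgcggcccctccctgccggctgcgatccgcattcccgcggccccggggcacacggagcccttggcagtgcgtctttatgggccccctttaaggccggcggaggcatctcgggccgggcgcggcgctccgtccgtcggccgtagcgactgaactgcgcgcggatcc
The motif CACGTG, the core of the E-box bound by MYC-type factors, was present in the HOXD13, HOXD11 and HOXD10 regions, at 131, 90 and 106 bases before the start, and in 6.34% of 35097 promoters of the same length. It was not limited to the called genes: 8 of the 18 HOX regions with an entry held it, among them HOXA3, HOXA4, HOXA9, HOXD1 and HOXD3. GGGCGG, the core of the GC box, was in the HOXD13, HOXD11 and HOXD10 regions, in 10 of the 18 HOX regions and in 42.6% of all promoters. CCAAT was found in HOXD13 and HOXD10, and in 15 of the 18 HOX regions (32.0% of all promoters). TGATNNAT, the core bound by PBX with HOX proteins, was in HOXD11 and in 2 of the 18 (6.48% of all promoters). TATAAA was in HOXD13, where a match on each strand overlapped the other, and in 4 of the 18 (10.7% of all promoters). TGANTCA (6.57%), TGACGTCA (1.65%) and CCGGAAGT (3.42%) matched none of the 4 regions, and the HOXD8 region held no match to any of the 8 motifs. The G and C content was 74.0% in HOXD13, 61.6% in HOXD11, 64.0% in HOXD10 and 72.4% in HOXD8, against a median of 58.0% over all promoters. A match is a description of letters, and no binding was measured.

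HEK293 cells transcribed nearly the whole HOX system. Of the rows in each cluster, 11 of 11 HOXA, 9 of 10 HOXB, 8 of 9 HOXC and 8 of 9 HOXD genes met the read rule. Paralogue group 12 was the only number with no read member (0 of 2), while group 13, the most posterior, had 4 of 4. HOXB1, the anterior gene that marks a hindbrain segment in the embryo, had 0 or 1 read per library. HOXC12 had 1 to 7 reads and HOXD12 0 to 7 reads. The 36 members held 41 to 4176 reads per library, so a wide gap separated them from the 3 genes given as off. The lowest member, HOXC5, had 41 to 97 reads, and HOXC11 had 63 to 134.

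Levels of different genes were compared as CPM per kilobase of the principal transcript in GENCODE release 29, averaged over all 6 libraries. The members ran from 1.14 CPM per kb (HOXC11) to 49.99 CPM per kb (HOXD10), with a median of 8.43, against 9.83 for all tested genes with a length, and 15 of the 36 lay above that second median. HOXD10 was followed by HOXB9 (41.5), HOXA10 (34.3), HOXD11 (32.1) and HOXB2 (27.6), and the same 5 genes came first when the length of all exons together was used. The first place of HOXD10 rests on the co-culture libraries, where it had 61.4 CPM per kb. In the controls alone HOXB9 stood highest (41.5 CPM per kb), followed by HOXD10 (38.6) and HOXA10 (36.5). HOXD10 lay at the 89.6th percentile of the tested genes and HOXC11 at the 13.6th. Summed over clusters, paralogue group 10 had the highest level per length (92.1 CPM per kb), followed by group 9 (71.7), group 11 (47.3) and group 4 (45.0). Within the anterior groups 1 to 3, HOXB2 stood highest. HOXC4, at 18.5 CPM per kb, led the HOXC cluster. Reads shared by overlapping genes on 1 strand are not assigned to either, so the levels of HOXA9, HOXC4, HOXC5 and HOXC6, which share exons or overlap with other HOX rows, are uncertain. A row for the HOXA10-HOXA9 readthrough transcript held no read in any library. Reads on exons that this row shares with HOXA10 or HOXA9 would be assigned to none of them. The lack of reads therefore does not show that the readthrough is absent, and the level of HOXA10 is uncertain as well.

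**Figure D1:**
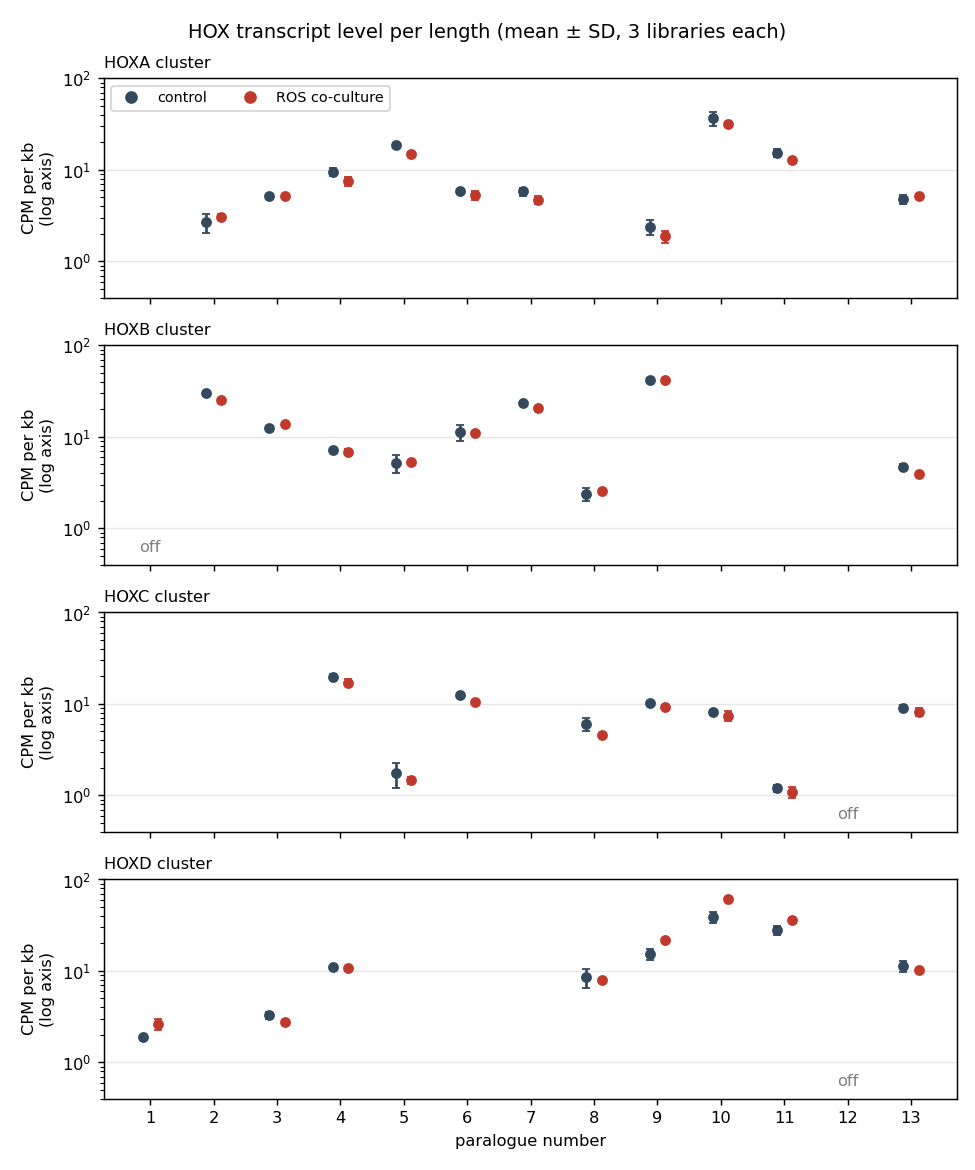
Level per length of 35 of the 36 HOX genes (CPM per kb of the principal transcript, log axis) by paralogue number, 1 panel per cluster, as mean ± SD of 3 control (dark) and 3 ROS co-culture (red) libraries. Levels peak at group 9 to 11 in HOXA, HOXB and HOXD, and HOXB1, HOXC12 and HOXD12 are marked as off.

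The leading gene of each cluster was HOXA10, HOXB9, HOXC4 and HOXD10. HOXA10, a gene of the posterior trunk and the reproductive tract, was read at 79.1, 84.2 and 80.9 CPM in co-culture libraries 1 to 3 and at 76.5, 92.9 and 109 CPM in the controls. The controls spread around the co-culture values, and the log2 fold change was -0.19 (SE 0.11, edgeR adjusted p 0.325). HOXB9 stood at 107, 108 and 106 CPM in co-culture against 107, 105 and 110.4 CPM in the controls. This was the member closest to equal levels, at a log2 fold change of -0.00 (edgeR adjusted p 0.971, SE 0.05). HOXC4 was read at 30.8, 28.7 and 25.8 CPM in co-culture against 34.6, 34.2 and 30.4 CPM in the controls, where the lowest control lay just under the highest co-culture library. Its log2 fold change was -0.22 (SE 0.09, edgeR adjusted p 0.162). Replicates of a group were close: the coefficient of variation of the members had a median of 8.19% in the controls (0.969% for HOXD1 to 30.5% for HOXC5) and 5.47% in co-culture (1.03% to 14.7%).

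The comparison of ROS co-culture with control cells set the HOX levels of sorted cells grown beside ROS-producing neighbours against those of sorted control cells. Of the 36 members, all of which passed the filter on low counts, 4 had an adjusted p under 0.05 in edgeR's quasi-likelihood test with Benjamini-Hochberg adjustment over all 14582 tested genes, or 11.1%, against 4.83% of all tested genes. HOXD9, HOXD10 and HOXD11 rose (8.33%, against 2.66% of all tested genes called higher), and HOXA5 fell (2.78%, against 2.17% called lower). The 3 that rose are neighbours in the posterior part of 1 cluster. The other 32 members had log2 fold changes between -0.41 and 0.44, with edgeR adjusted p-values from 0.0814 to 0.971. Over all 36 members the median log2 fold change was -0.13, with 10 values above and 26 below 0, against a median of -0.00 over all tested genes with 7229 above and 7353 below. Because the samples are bulk RNA, fewer cells expressing a gene and less RNA per cell cannot be told apart.

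HOXD10, which patterns the limb and the lumbar spinal cord, had the largest change. Its level was 119.9, 129.7 and 117 CPM in co-culture libraries 1, 2 and 3 and 68.1, 73.4 and 88.7 CPM in controls 1, 2 and 3. The groups did not overlap, and the gap between the lowest co-culture library and the highest control exceeded the range of either group. The means were 122 ± 6.79 and 76.8 ± 10.7 CPM (SD, n = 3 each), a 1.59-fold rise (log2 fold change 0.67, SE 0.09, edgeR adjusted p 0.00451).

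HOXD9, its neighbour on the anterior side, was read at 42.0, 41.1 and 38.3 CPM in co-culture against 24.5, 28.1 and 32.3 CPM in the controls. Every co-culture library lay above every control. The means of 40.5 ± 1.93 and 28.3 ± 3.88 CPM (SD, n = 3 each) gave a 1.43-fold rise (log2 fold change 0.51, SE 0.10, edgeR adjusted p 0.0177).

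HOXD11, the neighbour on the posterior side and 1 of the group 11 genes required for kidney formation in mice, was read at 54.0, 58.9 and 54.1 CPM in co-culture against 39.6, 40.4 and 48.1 CPM in the controls. Again the groups did not overlap, with control 3 nearest to the co-culture libraries, as it was for HOXD10 and HOXD9. The means were 55.7 ± 2.78 and 42.7 ± 4.69 CPM (SD, n = 3 each), a 1.30-fold rise (log2 fold change 0.38, SE 0.08, edgeR adjusted p 0.0314).

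The members on either side missed the threshold. HOXD12, which lies between HOXD11 and HOXD13, was off in all libraries. HOXD13, the digit and genital gene at the posterior end, stood at 22.9 ± 0.354 CPM in co-culture against 25.1 ± 3.30 CPM in the controls (log2 fold change -0.13, edgeR adjusted p 0.452). HOXD8 stood at 15.4 ± 0.531 and 16.4 ± 3.84 CPM (-0.08, edgeR adjusted p 0.767). HOXD4 (-0.04, edgeR adjusted p 0.834) and HOXD3 (-0.23, edgeR adjusted p 0.315) did as well. Whether these genes differ from HOXD9, HOXD10 and HOXD11 in their response was not tested. Outside the cluster, EVX2, next to HOXD13, had almost no reads, and LNPK (log2 fold change 0.11) and MTX2 (0.04), 1 on each flank of the cluster, missed the threshold (edgeR adjusted p 0.402 and 0.733).

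HOXD1, at the anterior end, was the other member with a large positive value. It was read at 5.85, 5.32 and 4.36 CPM in co-culture against 3.74, 3.81 and 3.80 CPM in the controls. The groups did not overlap, and the 3 controls were almost equal, but the log2 fold change of 0.44 (SE 0.17) had an edgeR adjusted p of 0.143. Its reads numbered 73 to 156 per library, against 1348 to 4176 for HOXD10.

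**Figure D2:**
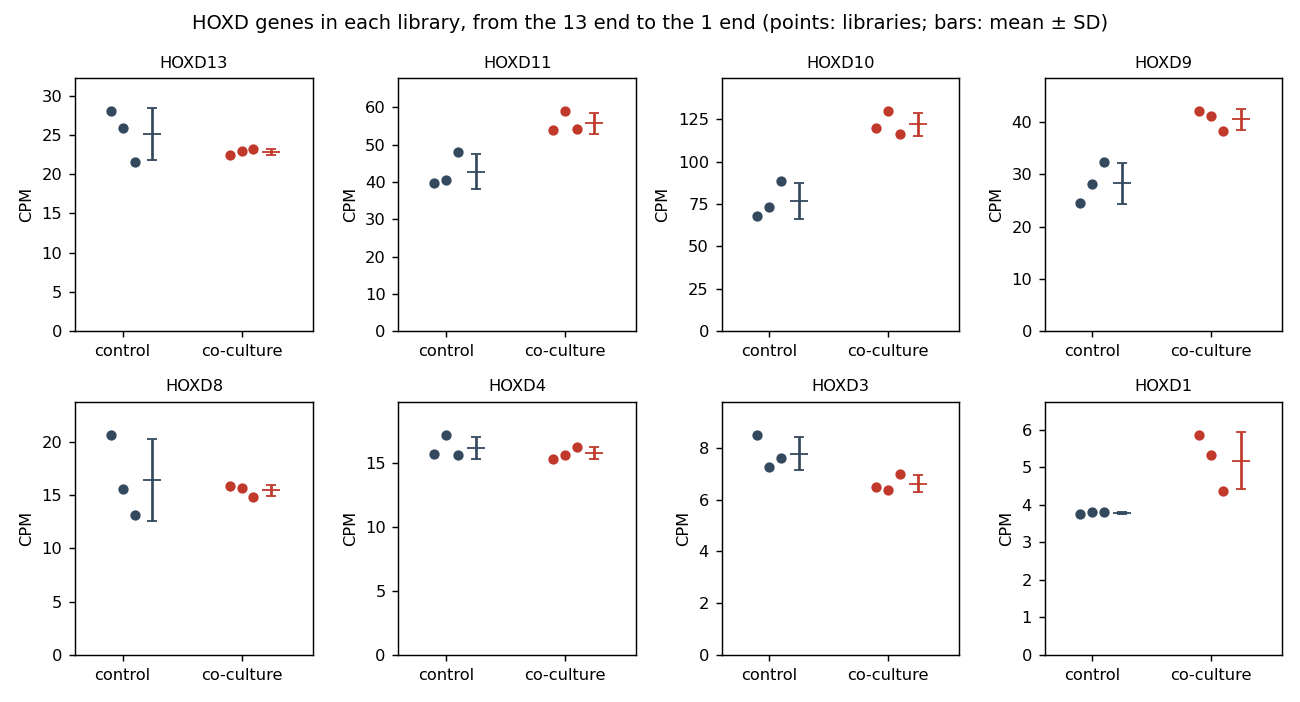
Level of each read HOXD gene in each library (CPM, TMM-scaled, axis from 0), with points for libraries and bars for mean ± SD of 3 control and 3 co-culture libraries. HOXD11, HOXD10, HOXD9 and HOXD1 are higher in all 3 co-culture libraries than in any control, and HOXD3 is lower in all 3. HOXD13, HOXD8 and HOXD4 overlap between the groups.

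HOXD9, HOXD10 and HOXD11 were picked for their calls in these same libraries, so their sum had to differ between the groups. Added together, they gave 216, 229.7 and 209 CPM in the co-culture libraries and 132, 142 and 169 CPM in the controls. The other 33 members together stood at 715 ± 15.7 CPM in co-culture against 772 ± 34.3 CPM in the controls. The HOXD cluster as a whole, which holds these 3 genes, made up 30.4% ± 0.626 of all HOX reads in co-culture against 23.6% ± 0.513 in the controls (SD, n = 3 each). HOXA made up 24.7% ± 0.0689 against 28.0% ± 1.29, HOXB 33.2% ± 0.101 against 34.6% ± 0.397, and HOXC 11.7% ± 0.538 against 13.8% ± 0.768. The total over all members was 934 ± 23.5 CPM in co-culture against 920.1 ± 52.5 CPM in the controls, a difference within the spread of the controls. Without co-culture libraries 2 and 3, the HOXD share was 29.9% in the remaining co-culture library against 23.0% to 24.0% in the controls. Shares of 1 total are not independent of each other, and these sums were not tested.

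In the HOXA cluster, HOXA5, which acts in lung and neck skeleton, was the member that passed the test, at a lower level in co-culture. It was read at 26.0, 24.6 and 23.8 CPM in co-culture against 29.5, 32.9 and 31.3 CPM in the controls. All 3 co-culture libraries lay below all 3 controls. Its means were 24.8 ± 1.08 and 31.2 ± 1.70 CPM (SD, n = 3 each), a fold of 0.794 (log2 fold change -0.33, SE 0.08, edgeR adjusted p 0.0342). Its neighbour HOXA4 had a similar value of -0.35 with an edgeR adjusted p of 0.0995, and HOXA6 had -0.15 (edgeR adjusted p 0.576). HOXA11, the HOXA member of the kidney paralogue group, had 29.3 ± 0.642 against 35.2 ± 3.36 CPM (log2 fold change -0.27, edgeR adjusted p 0.0843). HOXA7 had -0.30 (edgeR adjusted p 0.171) and HOXA9 -0.35 (edgeR adjusted p 0.291). HOXA2, HOXA3 and HOXA13 had values of 0.18, 0.02 and 0.13, at edgeR adjusted p-values of 0.591, 0.896 and 0.429.

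In the HOXB cluster no member passed in edgeR, DESeq2 or limma-voom (0 of 9, log2 fold changes from -0.27 to 0.14). An unadjusted edgeR p under 0.05 was found for 3 of the 9 (33.3%, against 23.2% of all tested genes). HOXB2 came nearest, at 39.6 ± 2.13 CPM in co-culture against 46.8 ± 2.71 CPM in the controls (-0.24, edgeR adjusted p 0.0814). HOXB13, best known from the prostate, had 13.5 ± 0.775 against 16.3 ± 1.27 CPM (-0.27, edgeR adjusted p 0.131), and HOXB7 had -0.18 (edgeR adjusted p 0.179). HOXB3, with 0.14, had the highest value of the cluster (edgeR adjusted p 0.285). HOXB4, HOXB5, HOXB6 and HOXB8 had values of -0.05, 0.04, -0.01 and 0.09, at edgeR adjusted p-values of at least 0.748.

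In the HOXC cluster no member passed in any of the 3 tools either (0 of 8), and all 8 values were negative, from -0.41 to -0.13. An unadjusted edgeR p under 0.05 was found for 3 of the 8 (37.5%, against 23.2% of all tested genes). HOXC8, a thoracic gene, was read at 9.01, 8.50 and 8.35 CPM in co-culture against 9.25, 12.9 and 12.1 CPM in the controls. Control 1 lay just above the highest co-culture library, so the groups were barely apart, and the log2 fold change of -0.41 (SE 0.14) had an edgeR adjusted p of 0.105. HOXC6 stood at 18.01 ± 0.570 against 21.6 ± 1.47 CPM (-0.27, edgeR adjusted p 0.0939). HOXC5 (-0.25), HOXC9 (-0.13), HOXC10 (-0.15), HOXC11 (-0.14) and HOXC13 (-0.14) had edgeR adjusted p-values from 0.402 to 0.677.

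**Figure D3:**
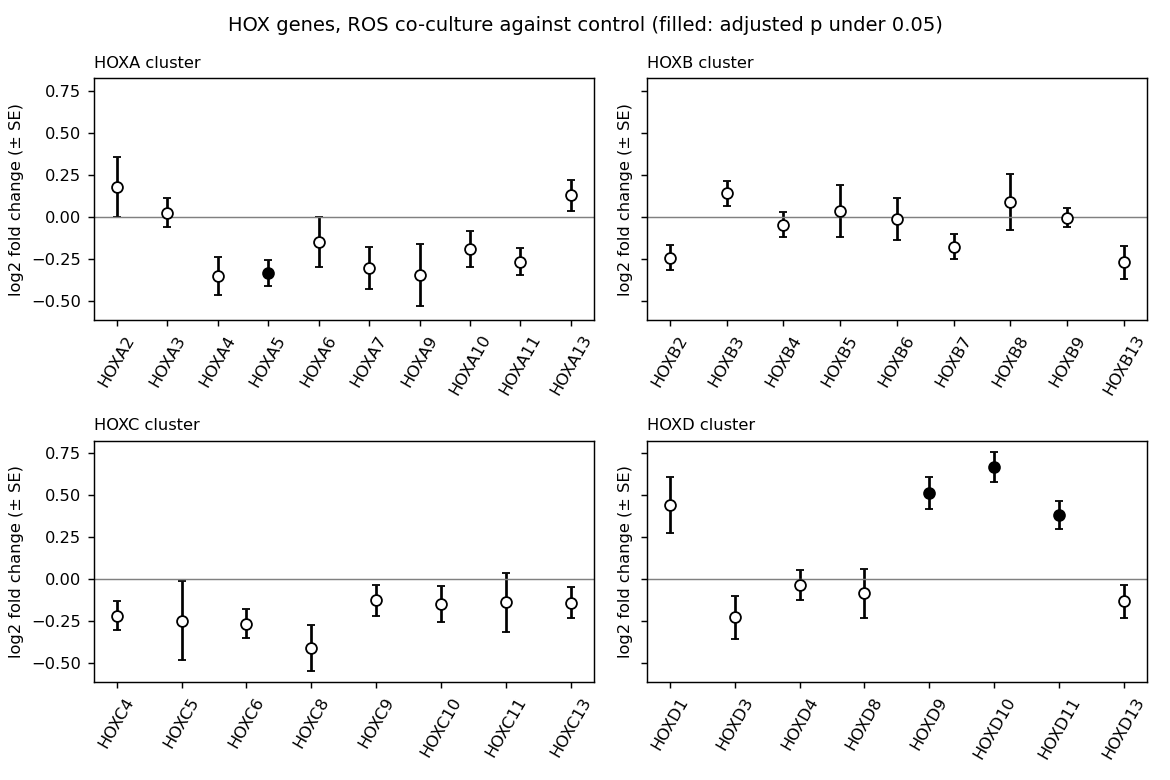
Log2 fold change (± SE) of 35 of the 36 HOX genes in ROS co-culture against control, by cluster in gene order; filled points have an edgeR adjusted p under 0.05. HOXD9, HOXD10 and HOXD11 stand at 0.51, 0.67 and 0.38, HOXA5 at -0.33, and all 8 HOXC genes lie below 0 without passing.

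Separation of the groups was more common than calls. In 15 of the 36 members (41.7%) all co-culture libraries lay on 1 side of all controls, against 29.3% of all tested genes. Of these, 4 were higher in co-culture (HOXD1, HOXD9, HOXD10 and HOXD11; 11.1%, against 14.3% of all tested genes). The 11 that were lower were HOXA4, HOXA5, HOXA7, HOXA11, HOXB2, HOXB7, HOXB13, HOXC6, HOXC8, HOXC9 and HOXD3 (30.6%, against 15.0%). An unadjusted p under 0.05 was found for 14 members (38.9%), 4 higher and 10 lower, against 23.2% of all tested genes. With co-culture libraries 2 and 3 left out, co-culture library 1 alone lay outside the range of the controls for 23 members (63.9%, against 56.8% of all tested genes). It was higher for 9 (25.0%, against 28.2%) and lower for 14 (38.9%, against 28.6%).

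The number of calls changed when single libraries were left out and when the class of forward-strand share was taken into account. Fewer libraries then carry the comparison, so a changed count does not by itself measure an effect of the class. When that class entered the model, which leaves co-culture library 1 to carry the comparison with the controls, no member passed (against 0.199% of all tested genes) and 6 had an unadjusted edgeR p under 0.05 (16.7%, against 12.5%). Of the called genes, HOXD10 had a log2 fold change of 0.64 (edgeR adjusted p 0.144), HOXD9 0.57 (0.194), HOXD11 0.34 (0.332) and HOXA5 -0.27 (0.389). Leaving out co-culture libraries 2 and 3 gave 0.65, 0.57, 0.34 and -0.26, at edgeR adjusted p-values of 0.266, 0.340, 0.489 and 0.571, in a fit where the lone co-culture library is assumed to vary like the controls. In that fit no member passed (against 0.0268% of all tested genes) and 4 had an unadjusted p under 0.05 (11.1%, against 9.48%). Without control 2 no member passed (against 0.44% of all tested genes), with HOXD10 at an edgeR adjusted p of 0.0503 and 9 members at an unadjusted p under 0.05 (25.0%, against 16.6%). Without co-culture 1 or without co-culture 2 HOXD10 alone passed, and without co-culture 3 HOXD9 and HOXD10 did. Without control 3 the 3 HOXD genes passed and HOXA5 missed the threshold (edgeR adjusted p 0.0513). Without control 1 the count rose to 10, the 4 genes and HOXA7, HOXA10, HOXA11, HOXB2, HOXC6 and HOXC8 (27.8%), while the share of all tested genes that passed rose to 20.8%. The sign of the 4 genes was the same in all 16 alternatives, with log2 fold changes of 0.59 to 0.79 for HOXD10, 0.42 to 0.62 for HOXD9, 0.33 to 0.48 for HOXD11 and -0.37 to -0.26 for HOXA5. The part of the forward-strand class in these differences was not tested beyond these fits.

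**Figure D4:**
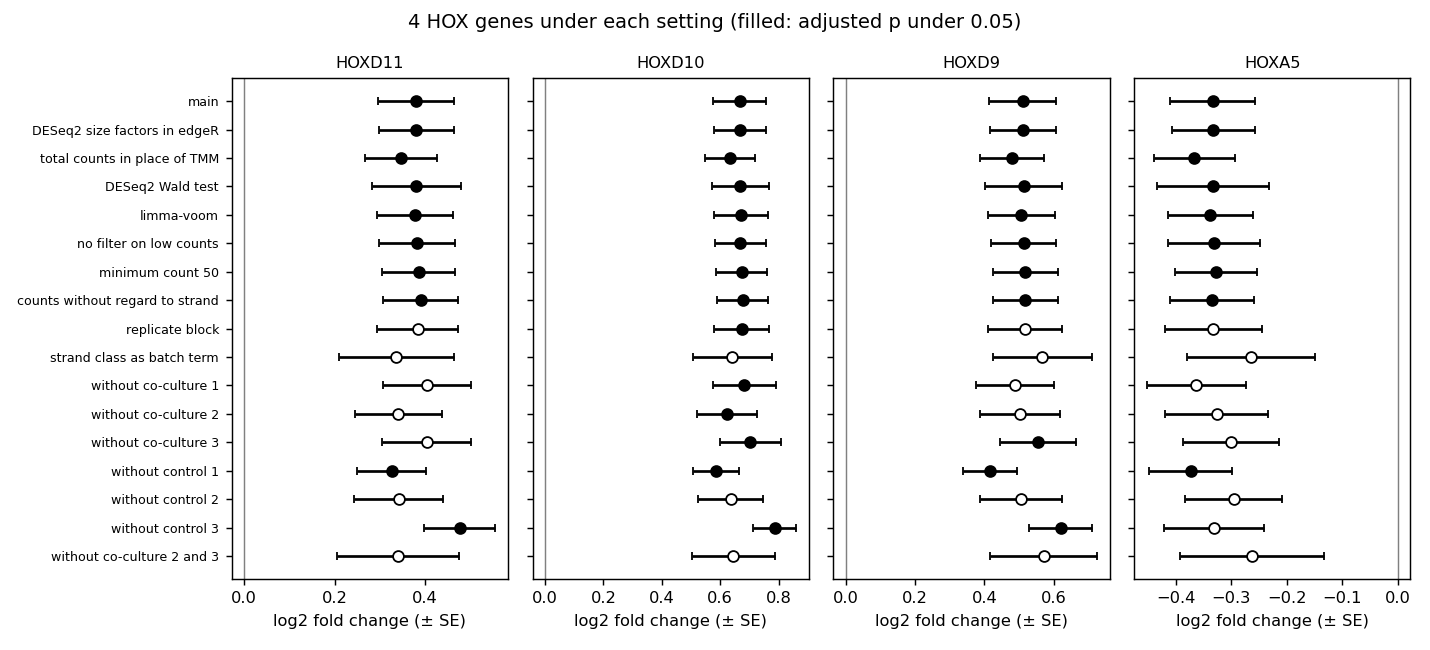
Log2 fold change (± SE) of HOXD11, HOXD10, HOXD9 and HOXA5 under the main setting and 16 alternatives; filled points have an adjusted p under 0.05. The points keep their side of 0 in every setting, and all 4 are open with the strand class in the model, without control 2 and without co-culture 2 and 3.

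The stranded libraries also give the reads that ran against each HOX gene. Pooled over the members, 3.02%, 1.79% and 2.03% of reads in co-culture libraries 1 to 3 and 3.28%, 3.19% and 3.32% in controls 1 to 3 lay on the forward strand, which follows the split of the libraries described above. For HOXD9, HOXD10 and HOXD11 the share was at most 1.42% in any library, so almost all reads there were sense. HOXA7 had the highest share among members in the controls (13.6% to 15.0%, and 15.3% to 23.0% in co-culture), and HOXD8 had 7.06% to 10.7% in the controls and 5.44% to 8.14% in co-culture. Over HOXA10 the share was 4.53% to 4.70% in co-culture, including library 1, and 7.35% to 7.92% in the controls. These forward-strand reads amounted to 3.93 ± 0.0489 CPM in co-culture against 7.64 ± 1.24 CPM in the controls (SD, n = 3 each).

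The antisense row HOXA-AS4, the older symbol of the HOXA10 antisense transcript, showed the same difference. It was read at 4.75, 3.90 and 3.97 CPM in co-culture against 6.97, 8.35 and 9.09 CPM in the controls. It fell by 0.96 on the log2 scale (SE 0.16, edgeR adjusted p 0.00923), with no overlap between the groups. The 2 measures can hold the same reads and are not independent. It was the only one of 11 tested noncoding rows of the clusters that passed, against 4.83% of all tested genes, and in counts made without regard to strand its log2 fold change of -1.02 had an edgeR adjusted p of 0.0750. With the strand class in the model it had -0.78 (edgeR adjusted p 0.266), without co-culture 2 and 3 -0.77 (0.438), and without co-culture 2 or without control 2 it also missed the threshold (0.0789 and 0.0676). HOTTIP, an RNA from beyond HOXA13 that is known to support posterior HOXA genes, had 2.13 ± 0.247 against 1.28 ± 0.119 CPM (0.71, edgeR adjusted p 0.0950). HOTAIR, an RNA of the HOXC cluster known from work on HOXD silencing, had 7.83 ± 0.486 against 5.95 ± 1.08 CPM (0.39, edgeR adjusted p 0.159). HOXD-AS1 (0.13), HOTAIRM1 (0.14), HOXA-AS3 (0.19), HOXA11-AS (-0.00), HOXB-AS3 (-0.34), HOXC-AS5 (0.31) and HOXD-AS2 (-0.53) had edgeR adjusted p-values from 0.224 to 0.996.

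MicroRNAs of the miR-196 family, encoded within the clusters, are known to target HOX transcripts, HOXB8 in particular. Their mature sequences, from RefSeq, differ outside a shared seed (bases 2 to 8, in capitals).
hsa-miR-196a-5p: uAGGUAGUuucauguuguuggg
hsa-miR-196b-5p: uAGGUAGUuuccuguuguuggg
The hairpin row MIR196A1, from the HOXB cluster, held 12 to 29 reads per library, at 0.876 ± 0.129 CPM in co-culture against 0.851 ± 0.253 CPM in the controls (log2 fold change -0.01, edgeR adjusted p 0.986). An mRNA library does not measure mature microRNAs, so these reads describe the longer transcript. HOXB8 stood at 4.66 ± 0.298 and 4.35 ± 0.682 CPM.

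The wider HOX system was given by 8 lists, of which 107 rows were tested. Of these, 8 passed (7.48%, against 4.83% of all tested genes), 3 higher and 5 lower. Among the TALE cofactors none of 9 passed in edgeR, DESeq2 or limma-voom, and none had an unadjusted edgeR p under 0.05. PBX2 (199 against 210.3 CPM), MEIS1 and MEIS2 were all read, and 8 of the 9 values were negative. Of the 12 PRC2 genes, which include the H3K27 methyltransferases, EZH1 rose (65.8 ± 5.48 against 53.2 ± 2.54 CPM, log2 fold change 0.30, edgeR adjusted p 0.0465). EZH2 had 0.18 (edgeR adjusted p 0.154) and EED -0.28 (edgeR adjusted p 0.0502). DESeq2 called 2 of the 12 PRC2 genes and limma-voom 1, which was not EZH1, so the tools differed on which of them passed. Of the 19 PRC1 genes 2 passed, among them PCGF5, which rose from 92.9 ± 6.61 to 115 ± 10.5 CPM (0.31, edgeR adjusted p 0.0497). Of 17 tested Trithorax and MLL genes none passed in edgeR or limma-voom and 1 in DESeq2. Of the 17, 3 had an unadjusted edgeR p under 0.05 (17.6%, against 23.2% of all tested genes). KMT2A, listed as MLL, had -0.03. In the list of CTCF, which bounds chromatin loops, and cohesin, CTCF itself fell (110 ± 6.96 against 135 ± 11.5 CPM, -0.30, edgeR adjusted p 0.0472) and none of the 9 genes of cohesin and its regulators passed in edgeR. The 10 tested neighbours of the clusters had no call in edgeR, DESeq2 or limma-voom and none at an unadjusted edgeR p under 0.05, with log2 fold changes from -0.21 to 0.45.

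Retinoic acid and CDX inputs had 3 of 19 called (15.8%, against 4.83% of all tested genes). STRA6, the cell-surface receptor that takes up retinol, was read at 36.1, 40.7 and 39.5 CPM in co-culture against 27.5, 22.6 and 21.5 CPM in the controls. It rose 1.63-fold with no overlap between the groups (log2 fold change 0.70, SE 0.10, edgeR adjusted p 0.00433). ALDH1A1, a retinaldehyde dehydrogenase, fell from 1.79 ± 0.727 to 0.399 ± 0.161 CPM (-2.05, SE 0.40, edgeR adjusted p 0.0208), on 5 to 50 reads per library. ALDH1A2, the related enzyme with far more reads, had 98.2 ± 1.41 against 109 ± 2.25 CPM (-0.15, edgeR adjusted p 0.135). GDF11, a secreted factor that promotes posterior HOX expression in the trunk, fell from 84.3 ± 2.78 to 65.8 ± 2.87 CPM (-0.36, SE 0.06, edgeR adjusted p 0.0121). The receptors RARA, RARB and RARG had -0.02, -0.23 and 0.02, and CYP26A1 and CYP26B1, which degrade retinoic acid, had 0.28 and 0.31 (edgeR adjusted p-values 0.432 and 0.0810). CDX2 had -0.06, and CDX1 and CDX4 had no read. In limma-voom EZH1, PCGF5 and CTCF missed the threshold, at adjusted p-values of 0.0511, 0.0543 and 0.0503. Without control 2 none of the 107 rows passed in edgeR, STRA6 at an adjusted p of 0.0509, and 16 had an unadjusted p under 0.05 (15.0%, against 16.6% of all tested genes). With the strand class in the model none of the 107 passed either, again with 16 at an unadjusted p under 0.05 (15.0%, against 12.5%). In that fit STRA6 had 0.60 (edgeR adjusted p 0.171), GDF11 -0.37 (0.214) and ALDH1A1 -2.13 (0.287). Without co-culture 2 and 3 the values were 0.60 for STRA6 (edgeR adjusted p 0.328), -0.37 for GDF11 (0.391), -2.13 for ALDH1A1 (0.406), 0.31 for EZH1 (0.458), 0.42 for PCGF5 (0.328) and -0.20 for CTCF (0.662), and none of the 107 passed, with 11 at an unadjusted p under 0.05 (10.3%, against 9.48%).

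**Figure D5:**
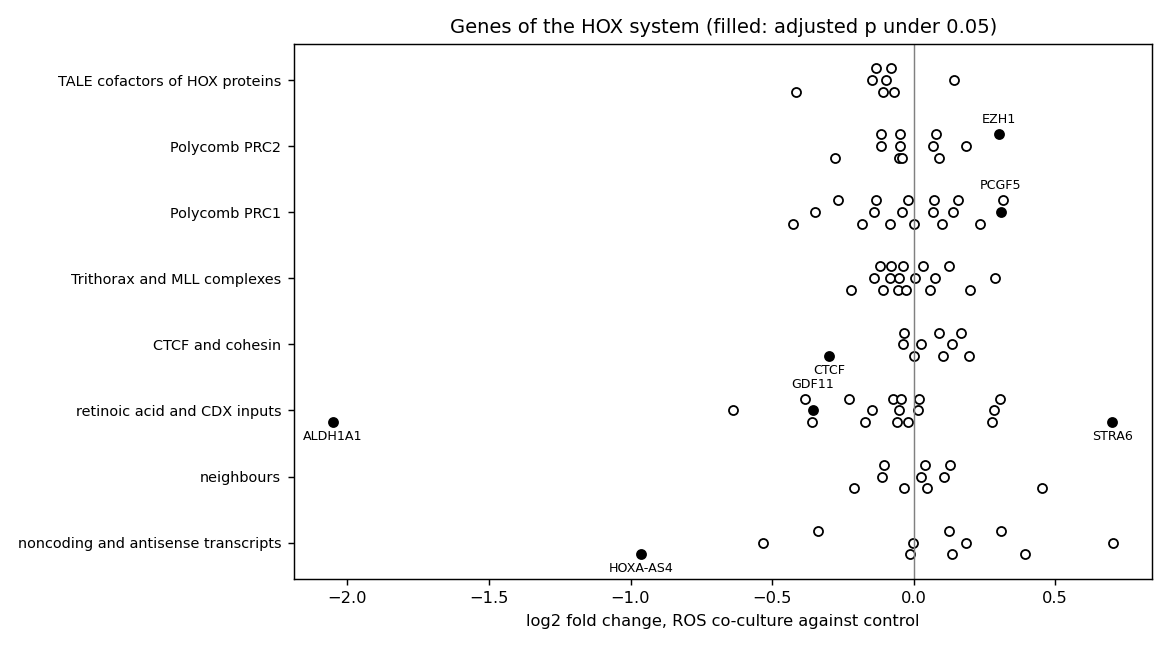
Log2 fold change (ROS co-culture against control) of tested rows of 8 lists around the HOX system; filled points have an edgeR adjusted p under 0.05 and carry their symbol. STRA6, EZH1 and PCGF5 lie above 0 and ALDH1A1, HOXA-AS4, GDF11 and CTCF below, while no TALE cofactor, Trithorax gene or cluster neighbour is filled.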

How the data were processed

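Per the labels' protocols, TriPure RNA went into Illumina stranded mRNA libraries. STAR 2.53a, FastQC and the build hg18 are named in the submitters' processing notes; the annotation is not given in the sources used here. The files deposited by the authors give unnormalised read counts for each gene in STAR's layout (4 summary lines, 3 count columns), 1 file per sample and not pooled. Reverse-strand counts were used, since they exceeded forward-strand counts in every library, and the summary lines were left out. STAR counts no read that maps to several places or overlaps several genes on the counted strand. Per library these 2 kinds took 6.48% to 8.42% and 0.835% to 1.01% of reads.

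Groups came from the sample titles. Libraries of a group differed beyond sampling noise (chi-square per degree of freedom 4.73 to 18.5), so each counted as 1 sample. The model was fitted in edgeR 4.0.16 (R 4.3.3) on all genes, with group as the only term, filterByExpr at a minimum count of 10 (14582 genes left), TMM scaling, robust quasi-likelihood F tests and Benjamini-Hochberg adjustment at 0.05. SE is computed from the log2 fold change and the F statistic, as its size over the root of F. On simulated counts for 14582 genes, 189 of 200 genes changed by 2-fold were called, and 14 of 203 calls were unchanged genes. The simulation used the fitted dispersions, with no strand class and no deviating library. Every HOX change was smaller than 2-fold, so these rates do not carry over to the HOX calls. Alternatives used limma 3.58.1 (voom), DESeq2 1.42.0, other scalings, filters and strand counts, the replicate number, the strand class and left-out libraries.

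The members that met the rule are named, except 1. It and some genes of the lists are counted in totals but not reported here. Full values are given for the leading gene per length of each cluster, called members, the 5 members with the largest absolute log2 fold change, and up to 3 called genes per list. The members and lists were chosen with earlier results of these data known. The lists were matched by symbol, 9 of them older symbols (such as MLL for KMT2A), and KMT2B, KMT2D and HAGLROS are not analysed here. Lengths came from GENCODE release 29, with a length for 92.0% of tested genes. Only gene symbols linked the files to the GRCh38.p14 tables, and no coordinate was moved between builds.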

Additional observations from a re-analysis of the deposited data

How the results depend on the processing

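HOX calls numbered 4 in the main setting and also with DESeq2 size factors, DESeq2, limma-voom, no filter on low counts, a minimum count of 50 and counts without regard to strand; total counts in place of TMM gave 6. All tested genes gave 704 calls, 882 with total counts (35.1% of them higher, against 55.1%), 1032 with DESeq2 and 864 with no filter. Same-numbered samples did not deviate together (correlations of -0.04, -0.09 and -0.09), and no sample correlated best with its own number. Deviations within such small groups are tied to each other, so these values cannot show whether same-numbered samples shared anything beyond the number, such as a batch. With the replicate block, 164 genes, 1 HOX gene (HOXD10) and 1 of the 8 listed genes around the HOX system (STRA6) passed. With the strand class in the model the counts were 29, 0 and 0, and without both libraries of low forward-strand share, an alternative chosen after seeing the data, 4, 0 and 0. Leaving out 1 replicate gave 65 to 3069 genes, 0 to 10 HOX genes and 0 to 23 listed genes, in each case lowest without control 2 and highest without control 1. The number of HOX genes on was 38 at 1 read, 37 at 5 reads, and 36 with 10 reads in all 6 libraries, with 50 reads, or without regard to strand.

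Of the 35 members reported singly, 25 kept their sign in all 16 alternatives and 25 never passed. The 10 that changed sign had main log2 fold changes from -0.15 to 0.09. With the strand class in the model HOXA3 had a log2 fold change of -0.00347, HOXB4 0.0547, HOXB6 0.0607 and HOXC10 0.0554. Without the 2 libraries of low forward-strand share HOXA3 had -0.000168, HOXB4 0.0576, HOXB6 0.0650, HOXC10 0.0581 and HOXC11 0.00107. HOXA3 had -0.00811 with total counts, HOXB6 0.000912 with the replicate block, and HOXB9 0.00101 at a minimum count of 50 and 0.00531 without regard to strand. Leaving out 1 replicate gave -0.0235 to 0.0666 for HOXA3, -0.134 to 0.1996 for HOXB5, -0.151 to 0.137 for HOXB6, -0.0360 to 0.191 for HOXB8, -0.0216 to 0.0178 for HOXB9, -0.0614 to 0.00612 for HOXD4 and -0.231 to 0.114 for HOXD8. Apart from the smaller number of samples where libraries were left out, the cause was not tested. Depth limits HOXC5 and HOXC11 most among the members.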
